A study of Caenorhabditis elegans with 8 samples.

Results

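The nuclear hormone receptor family of *Caenorhabditis elegans* was followed in adult worms that carried or lacked a mutation in mir-71, a microRNA gene. Its members here were the genes whose array row carried a single symbol of the form nhr- and a number, leaving out nhr-23 and nhr-25, with the brightest row standing for each gene. This gave 269 genes of the 25478 measured, of which 259 are annotated as protein coding and 10 as pseudogenes. A further 4 rows carry several symbols (nhr-62 entered under 2 gene identifiers, nhr-73 with nhr-245 on 2 rows, and nhr-259 with nhr-113) and stand for no gene.

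The control group was 4 samples of the wild-type strain N2, and the mutant group was 4 samples of mir-71(n4115). All were untreated whole-worm populations, synchronised by bleaching, fed *Escherichia coli* OP50 and collected on day 1 of adulthood. The RNA of every sample went on a separate 1-colour Affymetrix array, and the deposited values are log2 signals, for which detection above background could not be judged. No label states that cultures were grown separately, and the p-values below therefore cover only how far these samples spread. What n4115 removes is not stated in the sources used here.

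Nuclear hormone receptors are transcription factors that bind DNA through a pair of zinc fingers and, in many cases, change their activity when a small lipophilic ligand sits in a second domain. Nematodes carry far more of them than insects or mammals. Most of the worm's receptors descend from an ancestor resembling the vertebrate receptor HNF4, and many have no reported function. The better known ones set fat desaturation and breakdown, the handling of vitamin B12-linked metabolites, responses to toxins and pathogens, and steps of larval development.

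Wild-type replicate 4 stood apart from its group. Over all named rows its correlation with wild-type replicates 1 to 3 was 0.961 to 0.976, and with the mutants 0.986 to 0.993. Among the 269 receptor genes the same values were 0.942 to 0.966 and 0.984 to 0.991. It was nearer to the mutant mean than to the mean of wild-type replicates 1 to 3 for 190 receptor genes, 70.6%, against 72.2% of all genes. By its label it is a wild type, and it stayed in that group, and the called genes, the largest differences and the gene groups are given with and without it. It was singled out by these same values, as the wild-type array nearest to the mutants. Leaving such an array out tends to widen the differences and narrow the spread. All p-values and calls without it are therefore too favourable and serve as description only. Of the tissue markers examined, 4 of 7 sperm markers fell and 0 rose in the mutants, with a summed log2 signal of 9.81 to 10.13 in the wild type and 8.46 to 9.03 in the mutants. Of 8 markers of epidermis and moult 2 rose and 0 fell, with a summed signal of 12.42 to 12.64 in wild-type replicates 1 to 3, 12.95 in wild-type replicate 4 and 12.97 to 13.10 in the mutants. No marker of intestine, neurons, muscle or germ line passed the test, with 8 measured of each. With all arrays included, 0.616% of all genes rose and 1.22% fell. Without wild-type replicate 4, 6 of the 7 sperm markers fell and 6 of the 8 markers of epidermis and moult rose. Of the 8 of each other tissue, 2 rose and 3 fell for intestine and 3 rose and 1 fell for neurons. For muscle 5 rose and for germ line 2 rose, and 0 fell in either. Of all genes, 19.1% rose and 17.8% fell there. The part of these markers in the receptor values was not tested. In whole worms, fewer cells of a type and less RNA per cell cannot be told apart.

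Few receptor genes passed the test with all arrays included. Of the 269, 2 fell and 0 rose (limma, threshold 0.05 on p-values adjusted by Benjamini-Hochberg over all 26192 named rows). That is 0.743% of the receptor genes, where 1.84% of all genes were called (0.616% higher and 1.22% lower). At an unadjusted p under 0.05 there were 66 receptor genes, 24.5%, where 26.1% of all genes had such a p. Of the 66, 20 were higher and 46 lower in the mutants, which is 7.43% and 17.1% of the family, against 13.2% and 12.9% of all genes. The median log2 difference, mutant minus wild type, was -0.07 over the receptor genes and 0.02 over all genes. Of the receptor genes 108 were higher and 161 lower, so 40.1% were higher, against 51.8% of all genes. The differences ran from -1.60 to 1.23, and the median standard error was 0.17.

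Leaving out wild-type replicate 4 raised the number of calls. Without it 103 receptor genes were called, 38.3%, where 36.9% of all genes were. Of these 33 rose and 70 fell, 12.3% and 26.0% of the family, while 19.1% of all genes rose and 17.8% fell. The median difference of the family was then -0.08, and that of all genes 0.02. Array by array, the family's median distance from the mean of wild-type replicates 1 to 3 was -0.11 in wild-type replicate 4. In mutant replicates 1 to 4 it was -0.07, -0.11, -0.04 and -0.17.

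**Figure D1:**
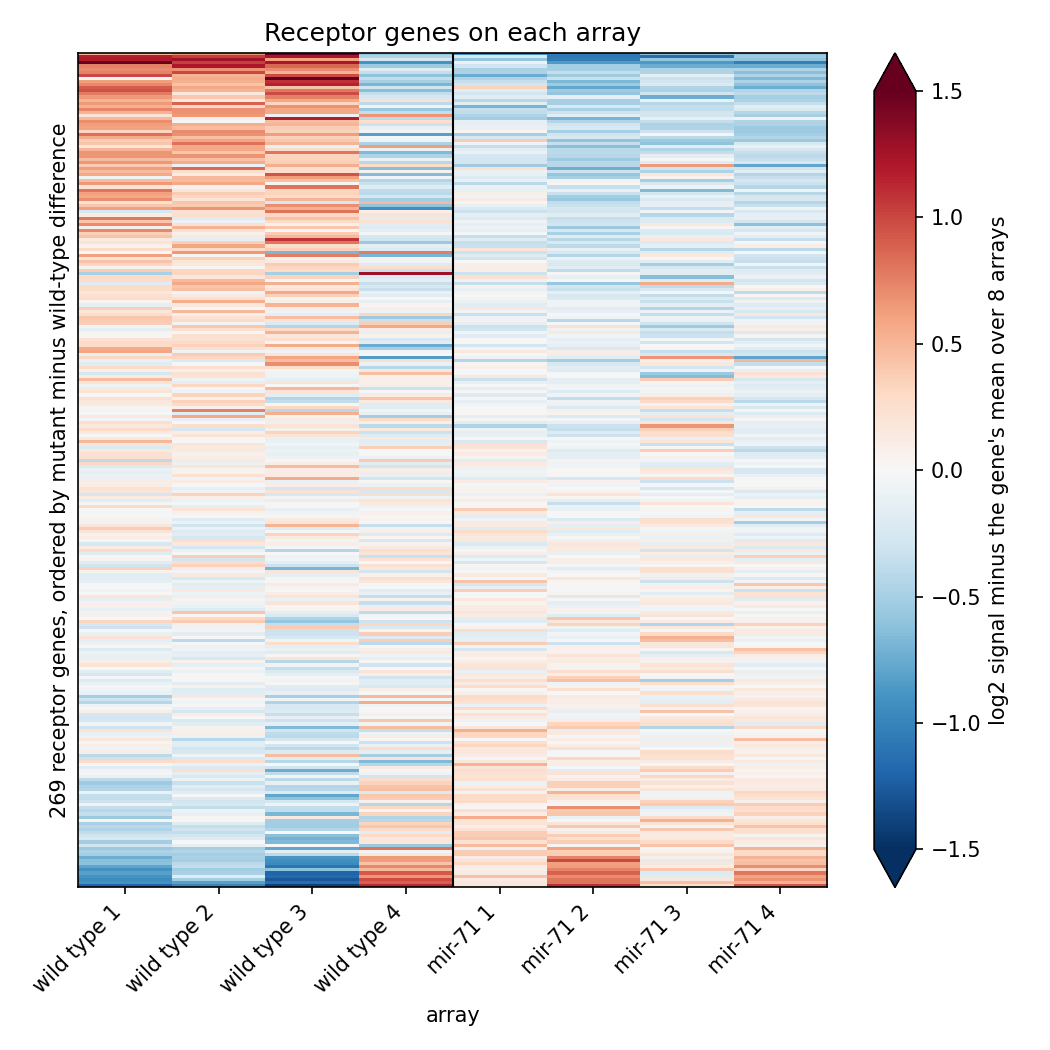
Log2 signal of the 269 receptor genes (rows, ordered by their mutant minus wild-type difference) on the 8 arrays (columns), each gene shown as its distance from its own mean over 8 arrays, with the colour scale running from -1.5 to 1.5. The column of wild-type replicate 4 looks more like the mutant columns than like wild-type replicates 1 to 3, and more rows are lower (161) than higher (108) in the mutants.

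The receptor gene with the lowest p was nhr-218, which lies on chromosome V. Its log2 signal was 3.56, 3.21, 3.62 and 3.29 in wild-type replicates 1 to 4 and 2.63, 2.55, 2.95 and 2.57 in mutant replicates 1 to 4. All mutant arrays lay below all wild-type arrays, and wild-type replicate 4 read within the range of the other wild-type arrays. The difference was -0.74 ± 0.15 (SE, n = 4 per group; limma, adjusted p = 0.0412), a 1.67-fold fall from a signal far down the array's scale. Without wild-type replicate 4 it was -0.79 (adjusted p = 0.00368). The call ended when any of the other 7 arrays was left out, the highest adjusted p being 0.130.

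The other fallen receptor gene was nhr-95, also on chromosome V. It read 7.83, 7.79, 7.83 and 6.94 in wild-type replicates 1 to 4 and 6.63, 6.62, 6.66 and 6.65 in the mutants. Wild-type replicate 4 read below its own group and above the mutants, and the groups did not overlap. The difference was -0.96 ± 0.20 (SE, n = 4 per group; limma, adjusted p = 0.0499), at the edge of the threshold. Without wild-type replicate 4 it was -1.18 (adjusted p = 9.97e-05), and without any other array the call ended, with an adjusted p of up to 0.156. The next in order of p, nhr-168 on chromosome V (named after its values were seen), read 4.44 to 5.03 in the wild type and 4.03 to 4.24 in the mutants and did not pass (adjusted p = 0.0563).

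In 9 receptor genes every mutant array lay above every wild-type array, and in 14 below. These are 3.35% and 5.20% of the family, against 6.03% and 5.01% of the 25209 genes outside it. The 14 were nhr-218, nhr-95, nhr-168, nhr-193, nhr-174, nhr-72, nhr-148, nhr-213, nhr-55, nhr-170, nhr-212, nhr-287, nhr-275 and nhr-40. The 9 were nhr-67, nhr-126, nhr-7, nhr-202, nhr-69, nhr-272, nhr-34, nhr-221 and nhr-8, of which nhr-34 turned from 0.29 to -0.04 with the trend over gene length taken out of each array. Members of both lists that the rule for named genes did not take were named after their values were seen. For some of them wild-type replicate 4 read with its own group. nhr-170 read 6.44, 6.59, 6.64 and 6.52 in the wild type and 6.18, 6.15, 5.90 and 6.20 in the mutants (difference -0.44 ± 0.12 SE; limma, adjusted p = 0.0865). nhr-202 read 5.78, 5.95, 6.07 and 5.52 in the wild type and 6.55, 6.12, 6.51 and 6.15 in the mutants (0.50 ± 0.16 SE; adjusted p = 0.116). In both, replicate 4 lay on the far side of the wild-type group from the mutants or inside that group.

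**Figure D2:**
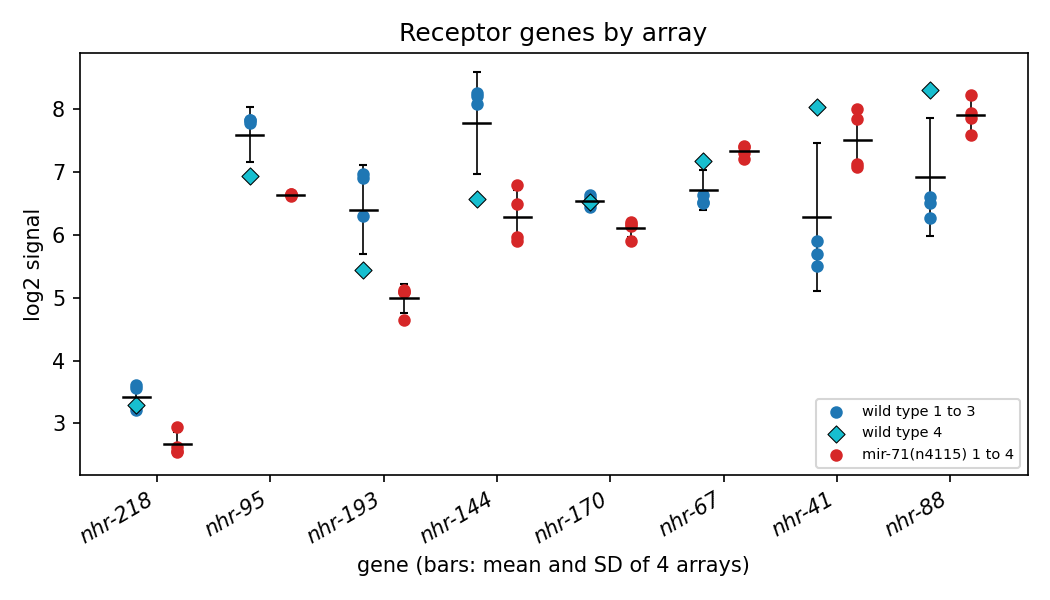
Log2 signal of 8 receptor genes on each array, with wild-type replicates 1 to 3, wild-type replicate 4 and the 4 mutants marked separately, and bars for the mean and SD of each group of 4 arrays. nhr-218 and nhr-170 show wild-type replicate 4 with the other wild-type arrays, nhr-95, nhr-193 and nhr-67 show it between the groups, and nhr-144, nhr-41 and nhr-88 show it among or above the mutants.

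The 5 largest negative differences belonged to nhr-287, nhr-144, nhr-193, nhr-249 and nhr-238, and none of them passed. nhr-193 read 6.90, 6.97, 6.30 and 5.44 in wild-type replicates 1 to 4 and 4.65 to 5.12 in the mutants. Its groups did not overlap, and the difference was -1.42 ± 0.32 (SE; limma, adjusted p = 0.0582). The pseudogene nhr-144 read 8.22, 8.08 and 8.26 in wild-type replicates 1 to 3, 6.58 in wild-type replicate 4 and 5.91 to 6.80 in the mutants (difference -1.49, adjusted p = 0.0803). There the array of replicate 4 fell inside the mutant range. nhr-249 read 5.29 to 5.75 in wild-type replicates 1 to 3, 3.37 in replicate 4 and 3.23 to 4.18 in the mutants (adjusted p = 0.126). nhr-238 read 5.77 to 6.22, then 4.48, then 4.26 to 4.71 in the same order (adjusted p = 0.101), again with replicate 4 inside the mutant range. nhr-287, a pseudogene, read 3.17, 3.34, 5.29 and 2.09 in the wild type and 1.61 to 2.08 in the mutants. Its wild-type arrays spread widely, with an SD of 1.33, and wild-type replicate 3 alone read above 4 (adjusted p = 0.129). Without wild-type replicate 4 all 5 fell, by 1.52 to 2.06 on the log2 scale (limma, adjusted p from 2.56e-04 to 0.00711). Of all genes 17.8% fell in that setting. These 5 were picked for their size on the same arrays, so their falls there are no separate support.

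Of the 10 pseudogenes 9 were lower and 1 higher in the mutants, with a median difference of -0.50, and none passed. Of all genes 51.8% were higher. Most of these pseudogenes are short, and of the receptor genes of 605 to 1775 bp and of 1777 to 2224 bp, 26.5% and 32.8% were higher. Without wild-type replicate 4, nhr-144, nhr-287, nhr-250, nhr-220 and nhr-194 were among those that fell (limma, adjusted p from 3.45e-04 to 0.0268), where 17.8% of all genes did. nhr-75 and nhr-266 did not pass, and how many of the 10 fell there was not counted. With the length trend removed and all arrays kept, the fallen ones named here differed by -1.49 to -0.34. All but nhr-144 and nhr-287 were named after their values were seen. The 259 protein-coding members had a median of -0.07. Whether rows of pseudogenes and of closely related receptors also bind transcripts of their relatives was not tested.

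The 5 largest positive differences belonged to nhr-41, nhr-88, nhr-71, nhr-35 and nhr-1, and none passed. In nhr-41, nhr-88, nhr-71 and nhr-1 wild-type replicate 4 read above every mutant array. nhr-41, the worm counterpart of the vertebrate TR2 and TR4 receptors, read 5.70, 5.91 and 5.50 in wild-type replicates 1 to 3 and 8.03 in wild-type replicate 4. The mutants read 7.09, 8.01, 7.13 and 7.85. The difference was 1.23 ± 0.52 (SE, n = 4 per group; limma, adjusted p = 0.175), and without replicate 4 it was 1.82 (adjusted p = 7.41e-04). nhr-88 read a mean of 6.46 in wild-type replicates 1 to 3, 8.31 in replicate 4 and 7.59 to 8.23 in the mutants (difference 0.99, adjusted p = 0.168). For nhr-71 the readings were 7.60 to 8.34, then 9.84, then 8.99 to 9.67 (adjusted p = 0.223). For nhr-1 they were 8.13 to 8.84, then 10.25, then 9.13 to 10.21 (adjusted p = 0.267). nhr-35 read 7.63 to 8.61 in wild-type replicates 1 to 3, 9.45 in replicate 4 and 8.63 to 9.50 in the mutants (adjusted p = 0.211). Without wild-type replicate 4 all 5 rose, nhr-88 by 1.45, nhr-71 by 1.36, nhr-35 by 1.15 and nhr-1 by 1.23 (limma, adjusted p from 3.35e-04 to 0.0102). Of all genes 19.1% rose in that setting. These 5 too were picked for their size on the same arrays, so their rises there are no separate support.

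Longer receptor genes had higher differences. The rank correlation of the difference with the annotated gene length was 0.34 (Spearman, across 269 receptor genes, which share their arrays and are not independent replicates). Across 18800 protein-coding genes it was 0.40. The 68 shortest receptor genes, of 605 to 1775 bp, had a median difference of -0.18, with 18 higher in the mutants. The 67 longest, of 3258 to 13329 bp, had a median of 0.19, with 41 higher. Protein-coding genes in the same 2 length ranges had medians of -0.15 and 0.19. Of the 67 longest 23 rose and 7 fell without wild-type replicate 4 (34.3% and 10.4%), where 39.8% and 9.02% of protein-coding genes of those lengths did. Of the 68 shortest 1 rose and 23 fell (1.47% and 33.8%), where 6.57% and 33.2% of such genes did.

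Wild-type replicate 4 followed length in the same direction. Its median distance from wild-type replicates 1 to 3 was -0.32 for the 68 shortest and 0.12 for the 67 longest receptor genes. With the length trend taken out of each array, the family's median difference was -0.03 and that of all genes 0.01, with 123 receptor genes higher and 146 lower. Under that setting the medians of the 68 shortest and the 67 longest were -0.06 and 0.02. nhr-218 remained called (-0.68; limma, adjusted p = 0.0459), and nhr-95, itself a gene of 6038 bp, missed the threshold with a larger difference (-1.15, adjusted p = 0.0591). Calls over all genes were then 1.73% (0.582% higher and 1.14% lower), and 0.372% of the family. The part of gene length in the differences of single receptors was not tested.

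**Figure D3:**
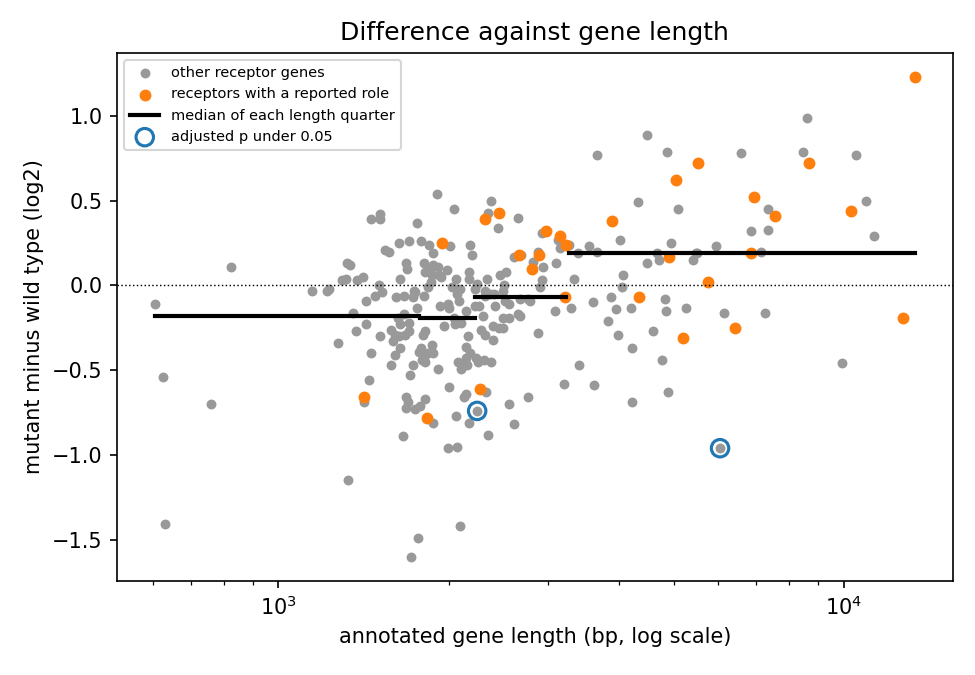
Mutant minus wild-type log2 difference of each of the 269 receptor genes (vertical axis) against annotated gene length in bp (horizontal axis, log scale). Black lines are the medians of 4 length classes, from -0.18 for the shortest to 0.19 for the longest, rings mark the 2 called genes, and orange points are receptors with a reported role.

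Receptors with a reported role stood higher than the rest, in role groups written with earlier results of these data known. Of 29 such receptors in 4 role groups, 28 were measured. None passed the test, and 7 had an unadjusted p under 0.05, a share close to the 26.1% of all genes with such a p. Of the 28, 20 had higher values in the mutants and the median difference was 0.21, while the other 241 members had a median of -0.10 with 88 higher. With the length trend removed these medians were 0.17 and -0.06. No test of the difference between these sets was made. With wild-type replicate 4 left out, 12 of the 28 rose and 3 fell (42.9% and 10.7%), where 19.1% of all genes rose and 17.8% fell. With the length trend also removed, 10 rose and 4 fell. For that setting the calls over all genes are given only for both directions together, at the end, so these counts have no background by direction.

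Among receptors of lipid use and fasting, 6 of 7 were measured and 4 were higher. nhr-49, the central regulator of fatty acid desaturation and of the fasting response, read 10.93 to 11.17 in wild-type replicates 1 to 3, 11.30 in wild-type replicate 4 and 11.18 to 11.33 in the mutants. The difference was 0.17 ± 0.12 (SE, n = 4 per group; limma, adjusted p = 0.371), and it was no larger than 0.23 without replicate 4. nhr-80, which controls stearoyl-CoA desaturase genes and the long life of worms without a germ line, differed by 0.18 (adjusted p = 0.351). nhr-13, a partner of NHR-49 in desaturase control, differed by -0.07 (adjusted p = 0.768). nhr-66, a partner of NHR-49 in sphingolipid and lipid breakdown, read 9.71 to 9.87 in wild-type replicates 1 to 3, 10.63 in replicate 4 and 10.19 to 10.66 in the mutants (difference 0.44, adjusted p = 0.219). Without replicate 4 nhr-66, a gene of 10272 bp, rose by 0.65 (adjusted p = 0.00724), and with the length trend also removed the difference was 0.21 and did not pass (adjusted p = 0.205). nhr-64, an HNF4-like receptor with an effect on fat stores, differed by 0.41 (adjusted p = 0.244) and also rose without that array (0.59, adjusted p = 0.0242). With the length trend also removed its difference was 0.25 (adjusted p = 0.210). nhr-76, which acts in the intestine downstream of serotonin in fat loss, differed by -0.25 (adjusted p = 0.548).

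Of the receptors of propionate and amino acid metabolism, nhr-10 and nhr-68 act together to switch on an alternative route of propionate breakdown when vitamin B12 is low. Their values went opposite ways. nhr-68 read 10.44, 10.20 and 10.58 in wild-type replicates 1 to 3, 9.12 in wild-type replicate 4 and 9.67, 9.38, 9.41 and 9.43 in the mutants. Replicate 4 read below every mutant array, and the difference was -0.61 ± 0.29 (SE; limma, adjusted p = 0.209). Without that array nhr-68 fell by 0.93 (adjusted p = 8.70e-04). nhr-10 read 8.84, 8.70, 8.99 and 8.66 in the wild type and 8.96 to 9.25 in the mutants, groups that overlapped slightly (difference 0.29, adjusted p = 0.179; 0.24 without replicate 4, adjusted p = 0.152). nhr-114, which protects the germ line on diets poor in methionine or vitamin B12, differed by 0.10 (adjusted p = 0.778).

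The group of xenobiotic, pathogen, iron and stress responses had 8 measured, 5 higher and 3 lower. nhr-42, reported in responses to bacterial infection, read 5.96, 5.34, 6.16 and 4.82 in the wild type and 4.91, 4.59, 4.88 and 4.79 in the mutants. Only wild-type replicate 4 lay within the mutant range, and the difference was -0.78 ± 0.27 (SE; limma, adjusted p = 0.129). nhr-176, needed for the detoxification response to thiabendazole, read 7.07 to 7.27 in wild-type replicates 1 to 3, 5.64 in replicate 4 and 5.94 to 6.43 in the mutants (difference -0.66, adjusted p = 0.234). Both fell without replicate 4, by 1.03 (adjusted p = 0.00336) and 1.04 (adjusted p = 8.24e-04). nhr-8, a relative of DAF-12 with roles in cholesterol balance and toxin resistance, read 7.99, 7.81, 7.97 and 7.65 in the wild type and a mean of 8.09 ± 0.09 (SD, n = 4) in the mutants. Its groups did not overlap, and the difference was 0.24 ± 0.12 (SE; adjusted p = 0.233).

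nhr-14, which acts in iron uptake and in immunity, read 9.28 to 9.62 in wild-type replicates 1 to 3, 10.13 in replicate 4 and 9.99 to 10.04 in the mutants (difference 0.43, adjusted p = 0.181). nhr-48, another relative of DAF-12, differed by 0.72 (adjusted p = 0.189) and nhr-45, which acts in mitochondrial stress and detoxification, by 0.38 (adjusted p = 0.241). These 3 rose without replicate 4, by 0.61, 1.06 and 0.57 (limma, adjusted p from 0.00242 to 0.00663). nhr-86, a sensor of a bacterial phenazine, differed by 0.02 (adjusted p = 0.940), a value whose sign turned under several settings. nhr-57, a gene switched on in low oxygen by HIF-1, differed by -0.07 (adjusted p = 0.713).

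Of 11 receptors of development and tissues 9 were higher, with a median of 0.32. nhr-67, the counterpart of the fly gene tailless and a regulator of the anchor cell and of neurons, read 6.53, 6.51, 6.63 and 7.18 in wild-type replicates 1 to 4 and 7.42, 7.40, 7.21 and 7.31 in the mutants. The groups did not overlap, and wild-type replicate 4 came close to the lowest mutant array. The difference was 0.62 ± 0.16 (SE, n = 4 per group; limma, adjusted p = 0.0842), and without replicate 4 it was 0.78 (adjusted p = 7.46e-04). nhr-69, an HNF4-like receptor linked to insulin secretion, read a mean of 9.03 in wild-type replicates 1 to 3, 9.37 in replicate 4 and 9.60, 9.37, 9.66 and 9.39 in the mutants (difference 0.39, adjusted p = 0.123). Both genes thus differed most between the mutants and wild-type replicates 1 to 3.

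nhr-85, the counterpart of the vertebrate Rev-erb receptors with a part in the timing of lin-4 transcription, read 6.41 to 6.69 in wild-type replicates 1 to 3, higher than any mutant in replicate 4 and 7.10 to 7.80 in the mutants (difference 0.52, adjusted p = 0.336). nhr-91, the counterpart of vertebrate GCNF, read 6.21 to 6.61, then 7.75, then 6.94 to 8.11 (difference 0.72, adjusted p = 0.221). Replicate 4 thus stood among or above the mutants for nhr-85, nhr-91 and nhr-41. Without it nhr-85 rose by 0.87 (limma, adjusted p = 0.00688) and nhr-91 by 1.05 (adjusted p = 0.0104). In that setting 7 of the 11 rose in all, where 19.1% of all genes did. nhr-40, which acts in muscle and movement, read 9.06 to 9.19 in the wild type and 8.83 to 9.03 in the mutants without overlap (difference -0.19, adjusted p = 0.255). With the length trend removed this gene of 12730 bp differed by -0.55 (limma, adjusted p = 0.0911). With replicate 4 also left out it fell by 0.67 (adjusted p = 0.00271). nhr-6, the counterpart of vertebrate NR4A receptors and a regulator of the spermatheca, read 6.79, 7.60 and 6.78 in wild-type replicates 1 to 3, 8.54 in replicate 4 and 6.95 to 7.29 in the mutants. For this gene replicate 4 read highest of the 8 arrays (difference -0.31, adjusted p = 0.591; 0.06 without it). nhr-2, nhr-111, nhr-60 and nhr-31 differed by 0.18 to 0.32, with adjusted p from 0.303 to 0.336.

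**Figure D4:**
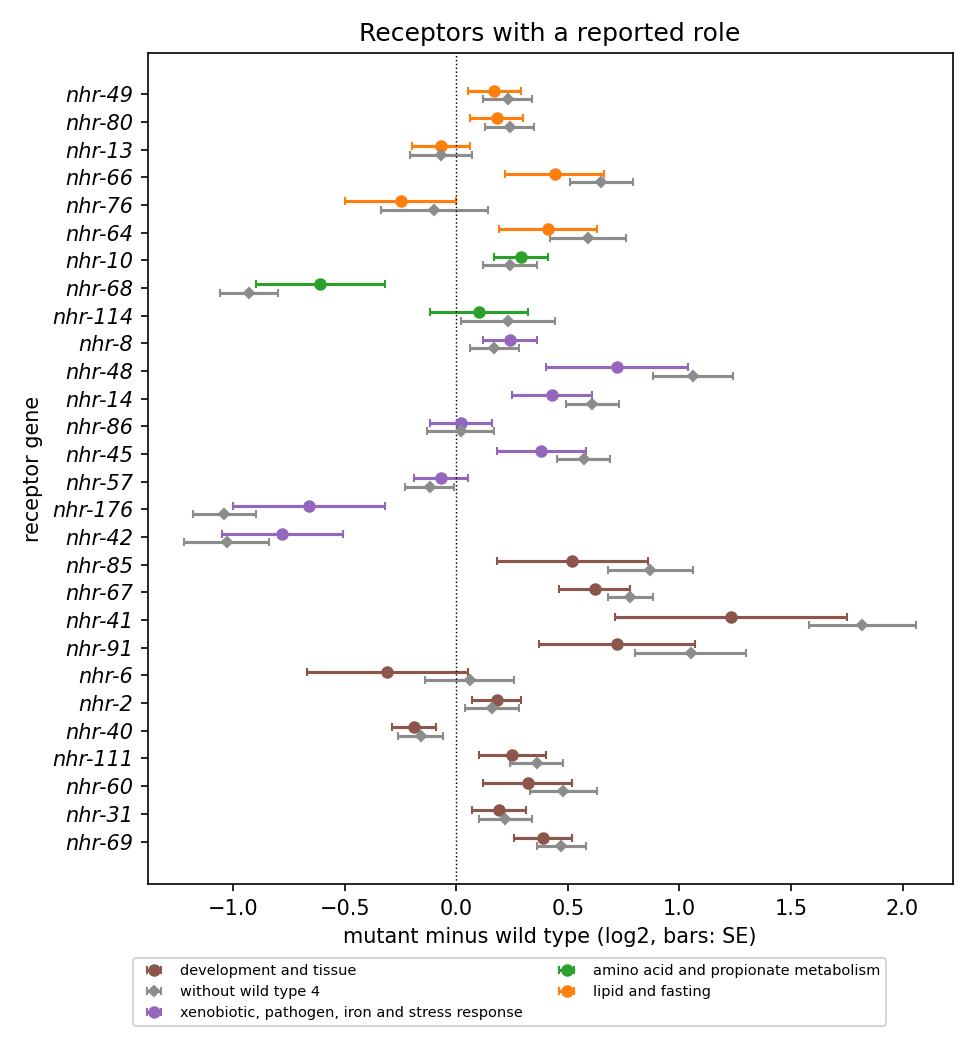
Mutant minus wild-type log2 difference (horizontal axis, bars for the SE) of the 28 measured receptors with a reported role (vertical axis), coloured by role group, with the difference without wild-type replicate 4 in grey. The values run from -0.78 (nhr-42) to 1.23 (nhr-41), 20 lie above 0, and leaving out replicate 4 moves nhr-41, nhr-48, nhr-91, nhr-68 and nhr-176 farther from 0.

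Chromosome V holds 170 of the 269 receptor genes, 63.2%. Their median difference was -0.12, with 58 higher and 112 lower, against a median of -0.06 over the 4695 protein-coding genes measured on that chromosome. The 22 receptor genes on X had a median of 0.26, with 15 higher, against 0.11 over the 2589 protein-coding genes there. The receptor genes of X were longer, with a median of 4039 bp, than those of V, with a median of 2092.5 bp. On I, II, III and IV the medians were 0.10, -0.20, -0.06 and -0.01, over 19, 16, 8 and 34 genes. On V 9 rose and 55 fell without wild-type replicate 4 (5.29% and 32.4%), where 11.3% and 21.6% of its protein-coding genes did. On X 10 rose and 1 fell (45.5% and 4.55%), where 31.1% and 15.7% of its protein-coding genes did.

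Many receptor genes lie side by side. Counting members with at most 1 other gene between them in the WBcel235 gene order, 154 belonged to a run of 2 or more, and 83 to the 13 runs of 4 or more. All but 2 of those 13 runs lie on chromosome V, and members of a run are not independent. The runs and their genes were named after their values were seen, and none of their genes passed the test. The run from nhr-161 to nhr-42 (nhr-161, nhr-163, nhr-139, nhr-140, nhr-162, nhr-107 and nhr-42) was lower in all 7 members, with a median of -0.41 and differences from -0.81 to -0.08. Its strongest, nhr-107, read 8.25, 7.81 and 8.09 in wild-type replicates 1 to 3, 6.66 in replicate 4 and 6.76 to 7.13 in the mutants, so that replicate 4 lay below the mutants. Without replicate 4, 6 of the 7 fell, where 17.8% of all genes and 32.4% of the receptor genes on V did. With the length trend removed and all arrays kept, the differences of the run went from -0.71 (nhr-107) to -0.07 (nhr-163).

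Within another run, neighbours differed among themselves. nhr-212 read 7.93, 8.19, 7.71 and 6.83 in the wild type and 6.56 to 6.83 in the mutants (difference -0.96, adjusted p = 0.0885). nhr-55 read 7.42, 7.87, 7.13 and 7.88 in the wild type and 6.76, 7.05, 6.95 and 6.73 in the mutants (-0.70, adjusted p = 0.0865), with wild-type replicate 4 the highest of its group. nhr-130, which lies between them, read 6.94 to 7.24 in the wild type and 6.99 to 7.36 in the mutants (0.08, adjusted p = 0.702). nhr-131, at the end of the same run, differed by 0.03 (adjusted p = 0.931). A run of 9 genes that begins with nhr-185 had 7 higher and 2 lower, with a median of 0.15 and differences from -0.25 (nhr-157) to 0.45 (nhr-158). The 6 genes of the run from nhr-178 to nhr-238 were all lower, from -1.15 to -0.01.

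Of 33 other genes of the receptors' pathways, all measured, 2 rose, 1 fell and 30 did not pass, so that 9.09% were called, where 1.84% of all genes were. The list was written with earlier results of these data known. The called genes were in the list of reported target genes, which had 17 members with 12 higher and a median of 0.20. fmo-2, a flavin-containing monooxygenase gene reported as a target of NHR-49, read 6.15 ± 0.12 (SD, n = 4) in the wild type, 6.25 at the most, and 7.63, 6.85, 7.28 and 7.19 in the mutants. All 4 wild-type arrays, replicate 4 included, lay below all mutant arrays. It rose by 1.09 ± 0.17 (SE, n = 4 per group; limma, adjusted p = 0.0190), or 2.13-fold, and by 1.13 without replicate 4 (adjusted p = 0.00144). irg-5, an immune effector reported as a target of NHR-86, read 6.42, 5.92, 6.28 and 5.41 in the wild type and 7.52, 7.42, 7.47 and 7.36 in the mutants. It rose 2.71-fold (1.44 ± 0.21 SE; adjusted p = 0.0151), with replicate 4 the lowest wild-type array and farthest from the mutants. Without that array the rise was 1.24 (adjusted p = 2.96e-04). irg-4, another reported target of NHR-86 (named, like the other uncalled target genes here, after its values were seen), read 7.69 to 7.81 in the wild type and 8.60, 7.76, 8.59 and 8.50 in the mutants, where mutant replicate 2 stayed in the wild-type range (0.62, adjusted p = 0.108).

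The fallen target gene was hacd-1, which encodes a predicted hydroxyacyl-CoA dehydrogenase of fatty acid oxidation and is reported to depend on NHR-49. It read 9.94, 9.80 and 9.96 in wild-type replicates 1 to 3, 8.64 in replicate 4 and 7.96, 7.78, 8.23 and 7.93 in the mutants. Replicate 4 lay between the groups, and hacd-1 fell by 1.61 on the log2 scale, 3.06-fold (SE 0.28; limma, adjusted p = 0.0296). Without replicate 4 the difference was -1.93 (adjusted p = 6.34e-05). All 3 calls held with the length trend removed, at adjusted p of 0.0177 for fmo-2, 0.00751 for irg-5 and 0.0251 for hacd-1, and each was lost when some array other than wild-type replicate 4 was left out, with an adjusted p of up to 0.105. Other genes that NHR-49 is reported to control did not pass. The stearoyl-CoA desaturase genes fat-6 and fat-7 differed by 0.32 (adjusted p = 0.142) and -0.02 (adjusted p = 0.956), the palmitoyl-CoA desaturase gene fat-5 by -0.02 (adjusted p = 0.967), and acs-2, an acyl-CoA synthetase gene of the fasting response, by 0.45 (adjusted p = 0.213). Of these, fat-6 and acs-2 rose without replicate 4, by 0.39 (adjusted p = 0.0181) and 0.60 (adjusted p = 0.0335). Of the propionate genes controlled by NHR-10 and NHR-68, acdh-1 read 11.78 to 12.53 in the wild type and 11.80 to 12.15 in the mutants (-0.21, adjusted p = 0.448). In the same group alh-8 differed by 0.42 (adjusted p = 0.245), and hphd-1 and hach-1 each by 0.06 (adjusted p of 0.825 and 0.715). Without replicate 4 alh-8 rose by 0.64 (adjusted p = 0.00643).

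**Figure D5:**
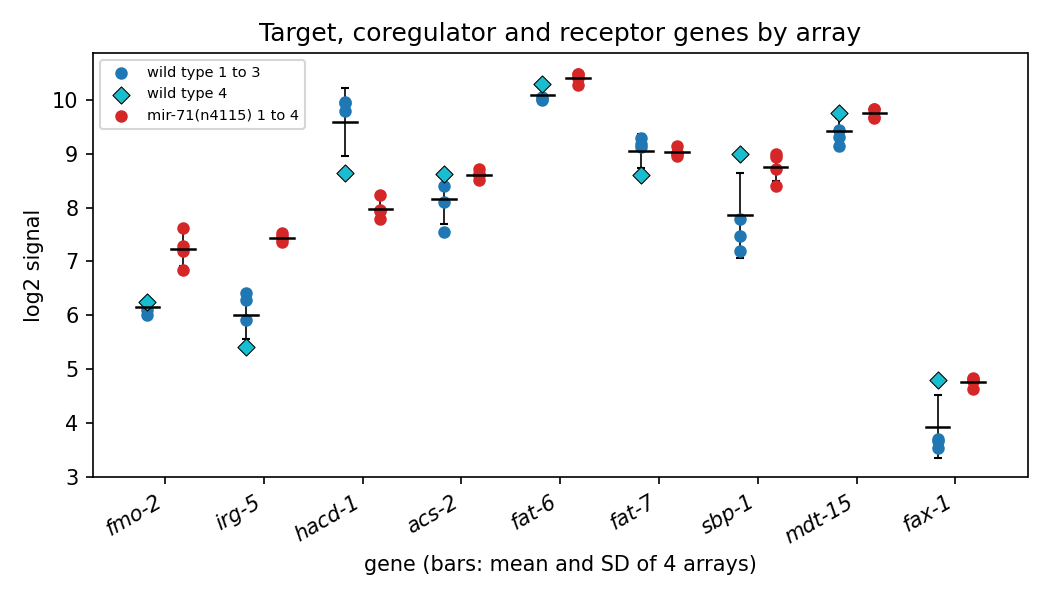
Log2 signal of 9 genes of the receptors' pathways on each array, with wild-type replicates 1 to 3, wild-type replicate 4 and the 4 mutants marked separately, and bars for the mean and SD of each group of 4 arrays. For fmo-2 and irg-5 all wild-type arrays lie below all mutants, for hacd-1 replicate 4 lies between the groups at 8.64, and for sbp-1 and fax-1 it lies with the mutants.

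Coregulators and other receptors had 0 called. Of 6 coregulators and chaperones all were higher, with a median of 0.49, and 4 had an unadjusted p under 0.05 (limma). Of all genes 26.1% had such a p, and 13.2% had it with a higher value in the mutants. Their genes are long, with a median of 9190.5 bp, and with the length trend removed the median difference was 0.20. Of the 6, 5 rose without wild-type replicate 4, where 19.1% of all genes rose, and with the length trend also removed 1 did. The lowest p was that of sbp-1, the SREBP factor that works with the Mediator subunit MDT-15 in fat synthesis. It read 7.19 to 7.79 in wild-type replicates 1 to 3, 8.99 in replicate 4 and 8.76 ± 0.27 (SD, n = 4) in the mutants (0.90 ± 0.35 SE; limma, adjusted p = 0.154; 1.28 without replicate 4, adjusted p = 0.00109). mdt-15 itself, a coactivator of NHR-49, differed by 0.33 (adjusted p = 0.180). All 5 receptors without an nhr name (daf-12, sex-1, odr-7, unc-55 and fax-1) were higher, with a median of 0.51, or 0.26 with the length trend removed. Of these, 2 had an unadjusted p under 0.05, beside the same 26.1% of all genes. fax-1, which specifies interneurons, read 3.54 to 3.71 in wild-type replicates 1 to 3, 4.80 in replicate 4 and 4.63 to 4.83 in the mutants (0.83, adjusted p = 0.109; 1.12 without replicate 4, adjusted p = 1.79e-04). Among 5 genes of dafachronic acid synthesis, the steroid ligands of DAF-12, the lowest p was that of dhs-16 (0.56, adjusted p = 0.194), and 0 had an unadjusted p under 0.05. With replicate 4 left out, dhs-16 alone of the 5 rose (0.78; limma, adjusted p = 0.00886) and 0 fell. Without wild-type replicate 4, 19 of the 33 pathway genes rose and 1 fell (57.6% and 3.03%), where 19.1% of all genes rose and 17.8% fell. With the length trend also removed, 13 rose and 2 fell. These counts, and that of the coregulators in the same setting, have no share of all genes by direction to stand beside.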

How the data were processed

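The deposited table holds log2 signals of 29317 rows on 8 arrays. Per the submitters' processing notes the authors used Partek 6.6 and RMA, which corrects background and normalises arrays to each other; their settings and the genome build are not stated in the sources used here. The log2 scale was read from the values' range. RMA hides any shift common to most genes. No further normalisation was applied.

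Rows were named through GEO's platform annotation (26192 rows, 25546 with 1 symbol). The 3125 unnamed rows were left out. All 269 members matched the RefSeq table of WBcel235 by Entrez identifier, used for chromosome, gene order, biotype and gene length, introns included.

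Groups were compared in R 4.3.3 by limma 3.58.1 (lmFit, eBayes, 2-sided, no covariate, Benjamini-Hochberg over all named rows, threshold 0.05). The code was tested on simulated data. Members and lists were chosen with earlier results of these data known. Named genes were called members, the 5 largest differences each way, role-group members, and in each pathway list the called genes or the lowest p; others are said to be named after their values were seen. The list's daf-21 appears on the array as hsp-90. Alternatives were a second quantile normalisation, array medians, a replicate block, dropping the dimmest 40% of rows, eBayes with trend, array weights, length trend removal (lowess on log2 length, span 0.5), other probe-set summaries, an adjusted p of 0.01 and leaving out each array. With 4 arrays a group precision is limited, and for some genes it depended on wild-type replicate 4. The SE of nhr-41 was 0.52 with that array and 0.24 without it.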

Additional observations from a re-analysis of the deposited data

Results flagged for a closer look

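In each group of 4 arrays, the array farthest from the rest was compared with the group's range for every gene named by rule. Of 90 such groups 10 held an array whose gap to the nearest other, as a share of the range, exceeded Dixon's critical value, which chance does in about 1 in 20 groups. In 7 of the 10 it was wild-type replicate 4, in 3 a mutant array, and in 0 another wild-type array.

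Wild-type replicate 4 read 6.94 for nhr-95 against 7.79 to 7.83 in the other wild-type arrays. It read 8.03 for nhr-41 against 5.50 to 5.91, and 8.31 for nhr-88 against a mean of 6.46. For nhr-144 it read 6.58 against 8.08 to 8.26, and for nhr-176 5.64 against 7.07 to 7.27. Outside the family it read 4.80 for fax-1 against 3.54 to 3.71, and 8.64 for hacd-1 against 9.80 to 9.96.

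Among the mutants, replicate 2 read 4.65 for nhr-193 against 5.09 to 5.12. Mutant replicate 1 read 9.67 for nhr-68 against 9.38 to 9.43, and 7.90 for nhr-86 against 8.24 to 8.30.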

How the results depend on the processing

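The share of receptor genes called, 0.743% (2 of 269), depended on single arrays. It was 0.743% with a second quantile normalisation and 0.772% over protein-coding members alone, an alternative chosen after seeing the data. It was 0.372% (1 gene) with array medians subtracted, with the replicate block, with eBayes trend and robust, after taking out the length trend and with the median of a gene's probe sets, and 0.578% (1 of 173) without the dimmest 40% of rows. It was 0 at an adjusted p of 0.01, where 23 of all genes were called. With array weights it was 41.3% (35 rose, 76 fell; 10466 of all genes), and after taking out the length trend and wild-type replicate 4 it was 32.3% (8652 of all genes). Leaving out 1 array gave 0 to 38.3%, the highest without wild-type replicate 4 (9401 of all genes) and 0 without any other array (38 to 178 of all genes, in place of 469). The pathway count of 3 was 21 with array weights, 15 after taking out that trend and replicate 4, 0 at an adjusted p of 0.01, and 0 to 20 with 1 array left out. The replicate block ended the calls of nhr-95 (adjusted p = 0.0632) and fmo-2 (adjusted p = 0.0501). Same-numbered samples did not all deviate together (r = 0.19, -0.11, 0.37 and 0.27), so the numbers were not taken to pair them. The family's median difference kept its sign in every setting, from -0.10 to -0.03. Among all 269 members, signs turned for 16 without wild-type replicate 4, for 27 with the length trend removed and for 34 under both. Among the 45 genes named by rule, signs turned for 4 uncalled ones: nhr-86 (0.02) to -0.16 with the length trend removed, -0.23 with replicate 4 also left out, and -0.04 to 0.11 with 1 array left out; nhr-31 (0.19) to -0.03 and -0.09 under the first 2 of these; nhr-6 (-0.31) to 0.02 with array weights and -0.53 to 0.06 with 1 array left out; nhr-13 (-0.07) to between -0.12 and 0.03 with 1 array left out. The cause was not tested.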
